A study of Rattus norvegicus with 23 samples.

Results

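The 6 clock genes Arntl, Npas2, Clock, Nfil3, Cry1 and Rora were described in the lungs of elderly rats. They were chosen by name, with their levels in these groups already known, from the 23022 genes that the arrays measured above background. Their differences between groups are therefore given as a description, with no p. All 6 genes were found, through 8 probes (2 each for Clock and Rora and 1 for each of the others), and all 8 probes were well above background on all 23 arrays, with 0 saturated spots. The rats were male F344 of 19 months at the onset of inhalation, and RNA came from the accessory lobe of the lung. Exposed rats inhaled TiO2 nanoparticles through the nose only at 10 mg/m3 for 4 weeks, on 5 days of each week and for 6 h on each day, and controls inhaled filtered air in the same way. Lungs were taken at the end of inhalation (D0) or 28 days later (D28), which gave 6 control and 5 exposed arrays on D0 and 6 control and 6 exposed arrays on D28, with 1 rat on each array. The control rats of D28 were thus 28 days older than those of D0. The hour of necropsy of each rat is not given in the sources used here. Groups may therefore differ in that hour as well as in exposure or day, and its part in the differences below was not tested. An effect of exposure means below the difference between exposed and control rats of the same day. For the exposed D28 rats 1 label (the source name) says day 0, and their titles and descriptions, which say D28, were followed.

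The circadian clock of a mammalian cell is a loop of transcription. Arntl (also named Bmal1) pairs with Clock or with its relative Npas2, and the pair switches on genes through a DNA motif named the E-box, among them the period and cryptochrome genes and the REV-ERB receptors Nr1d1 and Nr1d2. Period and cryptochrome proteins then block the pair, while the REV-ERB receptors repress Arntl, Npas2, Clock, Cry1 and Nfil3, and the ROR receptors, of which Rora is a member, activate through the same element. Nfil3 is a repressor that acts at D-box sites against the activators Dbp, Tef and Hlf. In the lung, as in other tissues, the transcripts of most of these genes go up and down over the day, with Arntl and Npas2 high when Nr1d1 and Dbp are low.

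Levels below are log2 intensities of a gene after quantile normalization between arrays, with the mean over its probes, so that a difference of 1 is a FC of 2. The levels of different genes come from different probes and were not compared with each other. Depth has no counterpart on an array. On each array 69.5% to 77.9% of spots exceeded background clearly, and the number of arrays limits the precision. The 23 arrays lay on 5 slides of 1 to 7 arrays, and replicate 4 of the D28 controls was alone on its slide and read with a later version of the scanner software. The lung is a mixture of cells, so that fewer cells of a type and less RNA per cell cannot be told apart.

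Arntl, the activator that the loop cannot run without, had its probe on chromosome 1 of rn4 from 171161969 to 171162028. Its level was lowest in the D0 controls and highest in the D28 controls. In the 6 D0 controls the lowest level was 7.01, the median 7.14 and the highest 8.17. The 5 exposed rats of D0 had 7.64, 8.68, 7.36, 7.88 and 7.86 in replicates 1 to 5. The 6 controls of D28 ran from 9.40 to 10.04 with a median of 9.74, above every other array of the series. The 6 exposed rats of D28 ran from 7.55 to 8.93 with a median of 8.69, and replicates 6 (7.55) and 5 (8.10) were the lowest of them. The D28 controls thus stood above the D0 controls by 2.41 ± 0.25 (log2 difference ± standard error, n = 6 and 6), a FC of 5.32, and these groups did not overlap. Exposed rats of D28 were lower than their controls by a FC of 2.37, a log2 difference of -1.25 ± 0.25 (n = 6 and 6), again without overlap. On D0 the exposed rats were at 0.58 ± 0.26 over the controls (n = 5 and 6). The groups overlapped through replicate 3 of the controls (8.17), while the other controls reached at most 7.27, below all exposed rats of D0. The exposed rats of D28 differed from those of D0 by 0.58 ± 0.26 and overlapped them. In the order of group means, control D0, exposed D0, exposed D28 and control D28, the neighbours overlapped except for the last step.

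The REV-ERB and ROR receptors share a DNA site, the ROR response element, and the stretch before the start of each of the 2 genes with the largest differences was read from RefSeq for this reason (GRCr8, a later build than that of the probes). The 250 bases before the start are shown 5′ to 3′ on the strand of the gene, with any match to the consensus of that element in capitals.
Arntl, chr1:176766078-176766327, plus strand: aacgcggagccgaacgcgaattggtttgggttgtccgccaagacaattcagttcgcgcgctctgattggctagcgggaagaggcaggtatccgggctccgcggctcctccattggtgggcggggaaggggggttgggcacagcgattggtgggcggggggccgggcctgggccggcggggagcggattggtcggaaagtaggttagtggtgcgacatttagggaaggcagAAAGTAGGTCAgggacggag
Npas2, chr9:48959315-48959564, plus strand: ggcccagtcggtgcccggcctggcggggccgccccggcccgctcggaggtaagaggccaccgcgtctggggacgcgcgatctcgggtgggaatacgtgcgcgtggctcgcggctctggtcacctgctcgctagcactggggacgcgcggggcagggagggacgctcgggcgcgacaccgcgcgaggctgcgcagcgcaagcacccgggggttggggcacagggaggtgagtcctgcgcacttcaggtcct
The Arntl window held 1 match, whose bases run from -20 to -10 where -1 is the base before the start. Both strands were searched, and 0.356% of the 33469 promoter windows of the table (250 bases before to 50 after the start) held such a match. The core AGGTCA, which lies inside that match and in 16.2% of all windows, was found in the Arntl window alone among the 5 members that have an entry, while Npas2, Clock, Nfil3 and Rora held neither. The E-box CACGTG (6.42% of all windows) and its variant CACGTT (4.83%) were found in the windows of Nr1d1, 1 in each of its 2 entries, and CACGTT also in that of Per2 at -62. The windows of Dbp and Nr1d2 were searched as well and held neither, and that of Nr1d2 held the core AGGTCA at -187. A match is a description of letters and not a site of binding. Bases outside these windows and sequences that differ from these motifs were not searched, so that no difference between the members is read from a missing match.

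Npas2, the partner of Arntl that can stand in for Clock, differed the most between the days. It was measured at chromosome 9 of rn4, bases 38433884 to 38433943. The D0 controls ran from 6.29 to 6.81 with a median of 6.50. The 5 exposed rats of D0 had 6.67, 6.25, 6.20, 5.72 and 5.94 in replicates 1 to 5. On D28 the controls ran from 9.13 to 9.56 with a median of 9.29 and the exposed rats from 7.66 to 8.71 with a median of 8.54. Every array of D28 was thus above every array of D0. The D28 controls were 6.85-fold over the D0 controls, a log2 difference of 2.78 ± 0.19 (n = 6 and 6). Exposed rats of D28 lay between, at -1.02 ± 0.19 from their controls (n = 6 and 6) and 2.15 ± 0.19 over the exposed rats of D0 (n = 6 and 5), and overlapped neither. As for Arntl, replicates 5 (7.66) and 6 (7.74) were the lowest exposed rats of D28. On D0 the exposed rats were at -0.40 ± 0.19 from the controls, and the groups overlapped, with 4 of 5 exposed rats below every control.

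**Figure D1:**
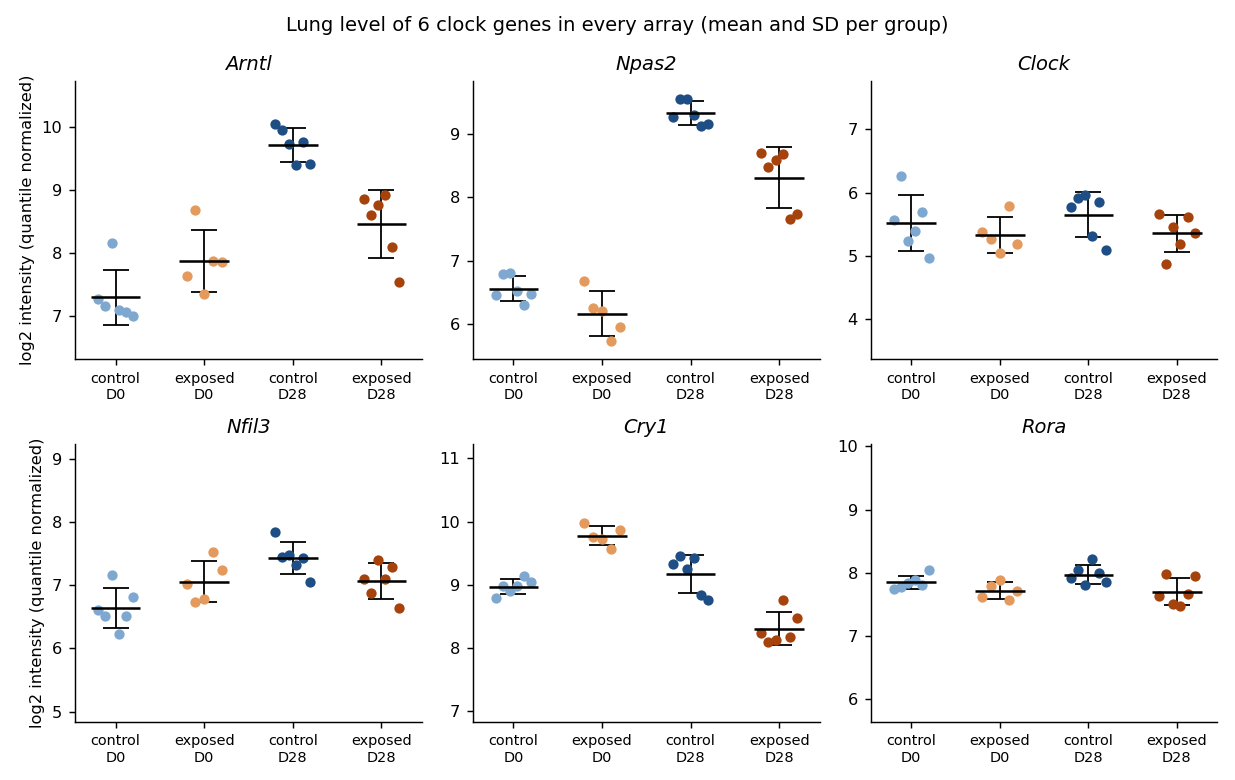
Level (log2 intensity after quantile normalization) of the 6 clock genes in each of 23 arrays, by group, with a line at the group mean and bars of 1 SD; each panel spans the same range of log2 units. Arntl and Npas2 were highest in the D28 controls (9.40 to 10.04 and 9.13 to 9.56), Cry1 was highest in the exposed rats of D0 (9.57 to 9.98), and Clock and Rora overlapped in all groups.

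Cry1, a cryptochrome that blocks the Arntl pair, had a different order of groups. It was measured at chromosome 7 of rn4, bases 20708985 to 20709044. Controls ran from 8.79 to 9.14 with a median of 8.98 on D0 and from 8.76 to 9.45 with a median of 9.29 on D28, a log2 difference of 0.20 ± 0.13 (n = 6 and 6), and overlapped. The exposed rats of D0 had 9.98, 9.76, 9.73, 9.57 and 9.86 in replicates 1 to 5, all above every other array of the series. They were 1.75-fold over the controls, a log2 difference of 0.81 ± 0.14 (n = 5 and 6). The exposed rats of D28 ran from 8.09 to 8.75 with a median of 8.20, below all D28 controls, although the highest exposed rat (8.75) and the lowest control (8.76) were close. Their log2 difference from the D28 controls was -0.87 ± 0.13 (n = 6 and 6), a FC of 1.82 downwards. Cry1 was thus higher with exposure on D0 and lower with exposure on D28, and the difference between both effects was -1.67 ± 0.19. Exposed rats of D28 were 2.77-fold lower than exposed rats of D0.

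Nfil3, the repressor at D-box sites, followed the order of Arntl with smaller steps. It was measured at chromosome 17 of rn4, bases 18107192 to 18107251. The level ran from 6.23 to 7.17 (median 6.56) in the D0 controls and from 7.06 to 7.85 (median 7.44) in the D28 controls. The log2 difference of 0.79 ± 0.17 (n = 6 and 6) was a FC of 1.73, and 5 of 6 D28 controls were above all D0 controls. The exposed rats had 7.01, 6.73, 6.78, 7.52 and 7.24 on D0 and ran from 6.64 to 7.40 on D28. They differed from their controls by 0.42 ± 0.18 on D0 and by -0.36 ± 0.17 on D28, with overlap on both days. Between the days the exposed rats differed by 0.01 ± 0.18.

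Clock and Rora differed the least. Clock, the usual partner of Arntl, ran from 4.96 to 6.26 in the D0 controls, from 5.04 to 5.79 in the exposed rats of D0, from 5.09 to 5.96 in the D28 controls and from 4.87 to 5.66 in the exposed rats of D28. All groups overlapped, and the log2 differences lay between -0.30 ± 0.20 (exposed against control on D28) and 0.13 ± 0.20 (controls between the days). The 2 Clock probes gave different directions for the controls between the days. The probe on chromosome 14 of rn4 from 34254357 to 34254416 gave 0.61, from 5.13 ± 0.23 (SD, n = 6) on D0 to 5.74 ± 0.38 (SD, n = 6) on D28. The probe placed from 34249295 to 34254359 gave -0.34, from 5.91 ± 0.84 to 5.57 ± 0.43. The Clock mean therefore holds probes that do not move together.

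Rora, the activating receptor at the element shown for Arntl, ran from 7.74 to 8.05 and from 7.81 to 8.22 in the controls of D0 and D28, and from 7.56 to 7.89 and from 7.47 to 7.97 in the exposed rats. The groups overlapped in every comparison. The exposed rats differed from their controls by -0.13 ± 0.10 on D0 and by -0.27 ± 0.10 on D28, and the controls differed between the days by 0.12 ± 0.10. The 2 Rora probes, on chromosome 8 of rn4 from 73817595 to 73817654 and from 73826597 to 73826656, were far apart in level and had the same sign in the differences from controls. On D28 the exposed rats were at -0.25 by the probe with the lower starting coordinate and at -0.30 by the other.

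**Figure D2:**
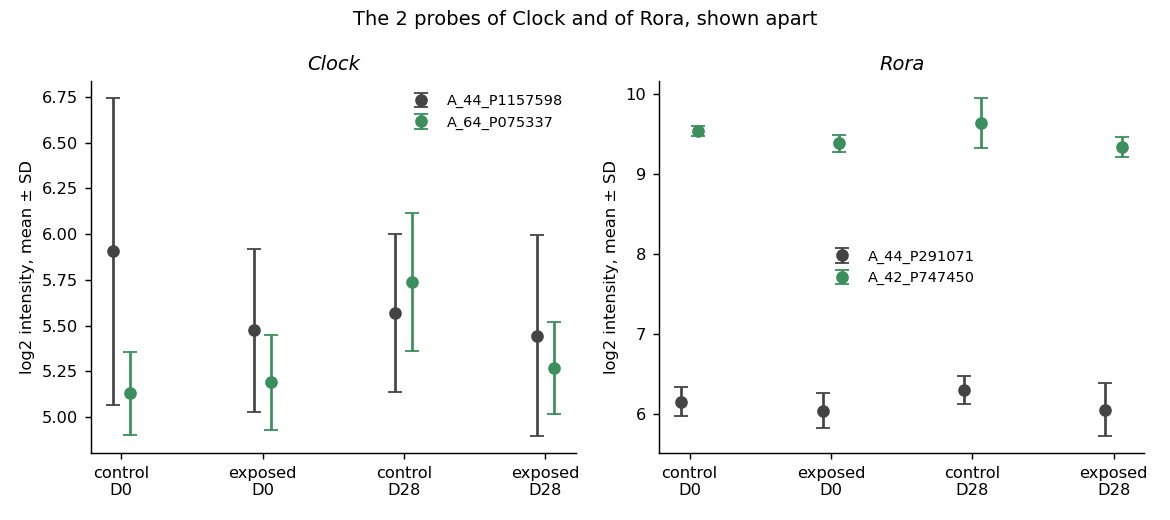
Mean log2 intensity (points) and SD (bars) of each probe of Clock and Rora in the 4 groups of 5 or 6 arrays. The Clock probe A_64_P075337 was higher in the D28 controls (5.74) than in the D0 controls (5.13), while A_44_P1157598 went from 5.91 to 5.57, and the 2 Rora probes lay near 6 and 9.5 in all groups.

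The genes past both thresholds of the fit over all genes (DEGs: a limma adjusted p below 0.05, and 1.5-fold or more up or down) are given with the share of all 23022 genes that passed, and since the members were chosen with these values known, nothing was read from their counts. Between exposed and control rats of D0, 1 of the 6 members passed (Cry1, higher), with 1.79% of all genes. Between exposed and control rats of D28, 3 passed (Arntl, Npas2 and Cry1, all lower), with 0.756%. Between the controls of D28 and D0, 3 passed (Arntl, Npas2 and Nfil3, all higher), with 0.612%. For exposed rats between the days 2 passed (Npas2 higher, Cry1 lower), with 0.352%, and for the difference between the effects of exposure on both days 1 passed (Cry1), with 0.0304%. Without overlap between the groups were 1 member on D0 (4.31% of all genes), 3 on D28 (1.22%), 2 for the controls between the days (1.62%) and 2 for the exposed rats between the days (1.21%). The median log2 difference over the 6 members was 0.14 on D0, -0.62 on D28 and 0.50 for the controls between the days, while the medians over all genes were -0.0006, -0.0054 and -0.0059. These comparisons share groups of rats, so that their values stand side by side and are not independent of each other.

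**Figure D3:**
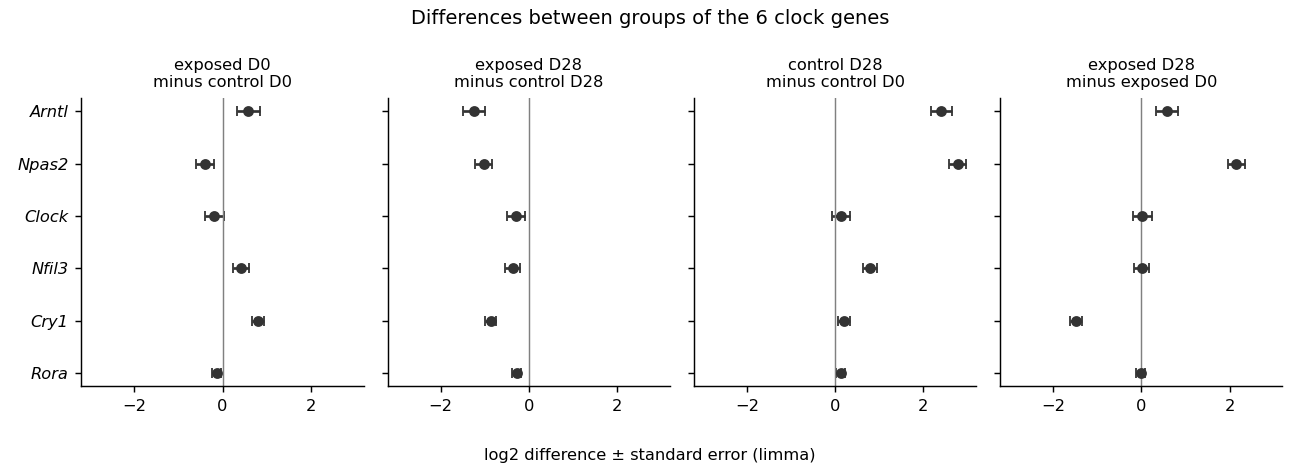
Log2 difference (points) and standard error (bars) of the 6 clock genes in 4 comparisons of groups, from 1 limma fit over 23 arrays. Arntl and Npas2 were at 2.41 and 2.78 between the controls of D28 and D0 and at -1.25 and -1.02 between exposed and control rats of D28, and Cry1 changed sign between the effects of exposure on D0 (0.81) and D28 (-0.87).

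The other side of the loop was read from 30 further clock genes that were not members: 15 genes driven through the E-box, 3 relatives of the members and 12 regulators such as casein kinases, F-box proteins and corepressors. The 12 regulators had 0 DEGs in every comparison. This list too was chosen with earlier results of these data known, so that its counts and p are a description and not independent support. Between the controls of D28 and D0, 10 of the 30 fell and 0 rose, while 0.612% of all genes passed. Dbp, an activator at D-box sites, fell by 4.13 on the log2 scale (standard error 0.33, limma adjusted p = 2.22e-07), from 13.39 to 14.14 in the D0 controls to 9.30 to 10.22 in those of D28. The REV-ERB receptor gene Nr1d1 fell by 2.42 (standard error 0.36, adjusted p = 0.000785) and its relative Nr1d2 fell by 1.48 (standard error 0.20, adjusted p = 0.000324). Per2, a period gene, fell by 2.37 (standard error 0.22, adjusted p = 1.65e-06). Tef and Hlf, further D-box activators, were at -1.44 and -1.56 (mean over the probes), the cryptochrome Cry2 at -0.85, the cell cycle kinase gene Wee1 at -0.76 and the repressor Bhlhe40 at -0.66, and all 5 passed (limma adjusted p from 0.000378 to 0.00552). The groups did not overlap for any of these genes, and their probes were well above background on all arrays except for 2 of the 3 probes of Hlf, which were so in 1 and 0 of the 6 D28 controls. By the probe that was well above background on all arrays Hlf was at -1.27, and over 12 other settings it was at -1.65 to -0.63 and passed in each. Bhlhe40 no longer passed with normexp background correction (-0.53) or with the authors' normalized values (-0.57). Ciart also passed, but was well above background in 1 of 6 controls of D0 and 0 of 6 of D28, so that no FC is given. Its call was lost in 4 of the 11 other settings that kept it (normexp, the authors' normalized values, the replicate block and array weights) and in 6 of 23 fits that left out 1 array (replicates 1, 2 and 4 of the D0 controls and 2, 4 and 6 of the D28 controls). Per1 was at -0.41 ± 0.31 and did not pass. Per3, a further period gene, was at -0.88 ± 0.25 as the mean of 3 probes and did not pass, but 2 of these probes were well above background on 2 and 0 of 23 arrays. By the probe that was well above background on all arrays Per3 was at -1.19, from 7.86 to 6.67, and passed. It passed in 3 of 12 other settings (that probe alone, the filter on spots well above background and 75th percentile scaling) and in 2 of 23 fits that left out 1 array (replicate 3 of the controls or replicate 6 of the exposed rats of D28).

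On D28 4 of the 30 rose with exposure and 0 fell, while 0.756% of all genes passed. This comparison shares the D28 controls with the one before. Dbp rose by 2.75 (standard error 0.33, limma adjusted p = 0.000284), with 11.13 to 13.72 in exposed rats. Nr1d1 rose by 2.00 (standard error 0.36, adjusted p = 0.00621), and its groups overlapped, with 5 of 6 exposed rats above every control. Nr1d2 rose by 1.11 (standard error 0.20, adjusted p = 0.00647) and Per2 was 2.15-fold higher (adjusted p = 0.0123). When the fit held the 12 arrays of D28 alone, Nr1d1, Nr1d2 and Per2 no longer passed and Dbp was the 1 gene left. The exposed rats that were lowest for Arntl and Npas2, replicates 5 and 6, were the highest for Dbp (13.66 and 13.72), Nr1d1 (9.75 and 8.84) and Per2 (9.06 and 9.58).

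On D0, Nr1d1 was lower with exposure by a log2 difference of -2.50, and the period gene Per1 fell by 1.41 (standard error 0.32, limma adjusted p = 0.0182). The repressor Bhlhe41 rose by 0.68 (standard error 0.17, limma adjusted p = 0.0285). Bhlhe41 no longer passed in 7 of 23 fits that left out 1 array (replicates 1, 3, 4 and 5 of the controls and 1, 3 and 4 of the exposed rats of D0), where it was at 0.60 to 0.69. It also lost its call with normexp (0.51), with the authors' normalized values (0.56) and with its highest probe alone (0.41), while its other probe went from 6.53 in controls to 7.48 in exposed rats. Per1 no longer passed without replicate 1 of the exposed rats of D0, where it was at -1.25. Dbp was at -1.16 ± 0.35 without overlap between the groups but did not pass (limma adjusted p = 0.0843). It passed in 3 of 12 other settings (the filter on spots well above background, only the arrays of the contrast, and array weights) and in 2 of 23 fits that left out 1 array (replicate 4 or 6 of the exposed rats of D28). Nr1d2 was at -0.70 ± 0.21 and did not pass, and it passed in 4 of 12 other settings (the authors' normalized values, the filter on spots well above background, the slide block and array weights) and in 2 of 23 fits that left out 1 array (replicate 3 of the exposed rats of D0 or replicate 6 of those of D28). Per2 was at 0.25 ± 0.23 with exposure on D0. For the exposed rats between the days, Nr1d1 rose by 2.07, while Per2 (-1.52) and Wee1 (-0.68) fell (limma adjusted p from 0.00131 to 0.014). The effect of exposure differed between the days for 3 of the 30, while 0.0304% of all genes passed. These were Nr1d1 with a difference of 4.49 (standard error 0.52, limma adjusted p = 0.000232), Dbp with 3.91 (standard error 0.48, adjusted p = 0.000519) and Nr1d2 with 1.80 (standard error 0.29, adjusted p = 0.0126).

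**Figure D4:**
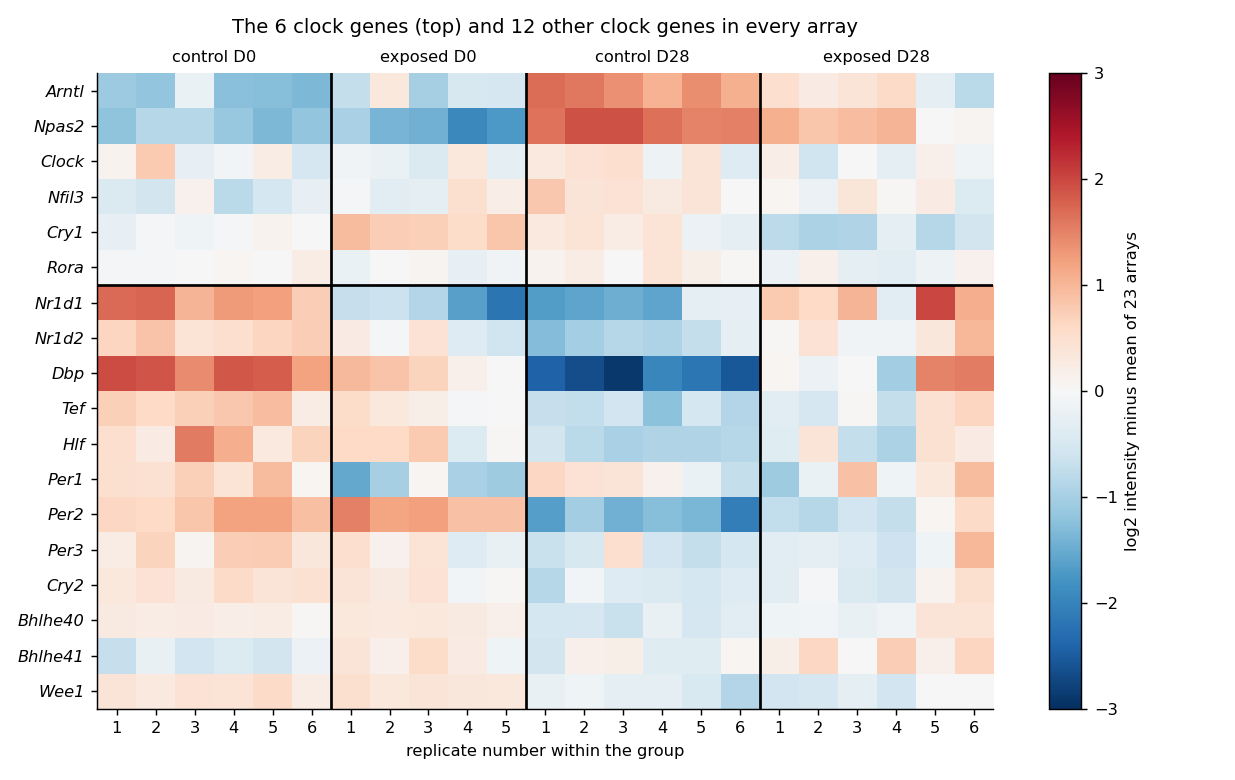
Log2 intensity minus the mean over 23 arrays (colour, from -3 in blue to 3 in red) for the 6 clock genes in the upper rows and 12 other clock genes in the lower rows; columns are arrays, with the replicate number within each group. In the D28 controls Arntl and Npas2 were above and Dbp, Per2 and Nr1d2 below their means, and in the exposed rats of D0 Cry1 was high while Nr1d1 was low.

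The genes with levels most like those of Arntl over the 23 arrays were sought among 13413 genes other than the members. On every array each of these genes had a probe well above background, while r used the mean over all its probes that passed the filter. The highest Pearson r were those of Mcub (0.93), Hs3st6 (0.91), Eln (0.89), Ccnjl (0.85) and Acss1 (0.81), and the lowest those of Dbp (-0.92), Per2 (-0.88), Cry2 (-0.87), Bhlhe40 (-0.86) and Nr1d2 (-0.85). Eln, which codes for elastin, had a mean level of 9.77 ± 0.15 (SD, n = 6) in the D0 controls, 9.71 ± 0.28 (SD, n = 5) in the exposed rats of D0, 12.14 ± 0.27 (SD, n = 6) in the D28 controls and 11.01 ± 0.27 (SD, n = 6) in the exposed rats of D28. Mcub, a subunit of the mitochondrial calcium uniporter complex, had 8.29 ± 0.11, 8.28 ± 0.05, 9.42 ± 0.09 and 8.95 ± 0.19 in the same order. These r hold the differences between the 4 groups and are a description, with no p. With deviations from the group means in place of levels, Mcub was again the highest (0.76), followed by Nol6 (0.73), Olr199 (0.70), Pla2g2c (0.68) and Ncs1 (0.64), and the lowest were Fam76a (-0.69), Zp2 (-0.66), Nr1d2 (-0.65), Terb1 (-0.64) and Prpf39 (-0.63). These r are the extremes of 13413 genes and likewise a description, with no p. Olr199, Pla2g2c, Ncs1 and Terb1 had weak signals, with group means from 4.08 (Terb1, exposed D28) to 5.13 (Olr199, control D0).

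Whether rats of the same group varied together in these genes was tested on deviations from the group means, which were not used to choose the genes. Over the 15 pairs of members and the 6 pairs of a member with Nr1d1, 0 of 21 passed after Benjamini-Hochberg adjustment and 3 had an unadjusted p below 0.05 (two-sided permutation test within groups, 100000 resamples, 23 arrays). Arntl and Npas2 had r = 0.54 (permutation p = 0.0266, adjusted 0.187) and rho = 0.53 (permutation p = 0.0253, adjusted 0.23), and r was 0.40 without the 2 arrays farthest from the median of Arntl. Within groups this r was 0.63 in the D0 controls, -0.10 in the exposed rats of D0, 0.34 in the D28 controls and 0.93 in the exposed rats of D28. Cry1 and Nr1d1 had r = -0.60 (permutation p = 0.0113, adjusted 0.187) and rho = -0.53 (permutation p = 0.0238, adjusted 0.23), and r was -0.41 without the 2 farthest arrays. By group it was -0.45 in the D0 controls, 0.21 in the exposed rats of D0, -0.97 in the D28 controls and -0.64 in the exposed rats of D28. Clock and Rora had r = -0.47 (permutation p = 0.024, adjusted 0.187) and rho = -0.43 (permutation p = 0.0548, adjusted 0.23), and r was -0.61 without the 2 farthest arrays. With slide effects removed as well, r was 0.71 for Arntl and Npas2 and -0.64 for Cry1 and Nr1d1, and both then passed the adjustment. The permutation still moved values between slides and took no account of the slide terms. No conclusion is therefore drawn from that pass.

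**Figure D5:**
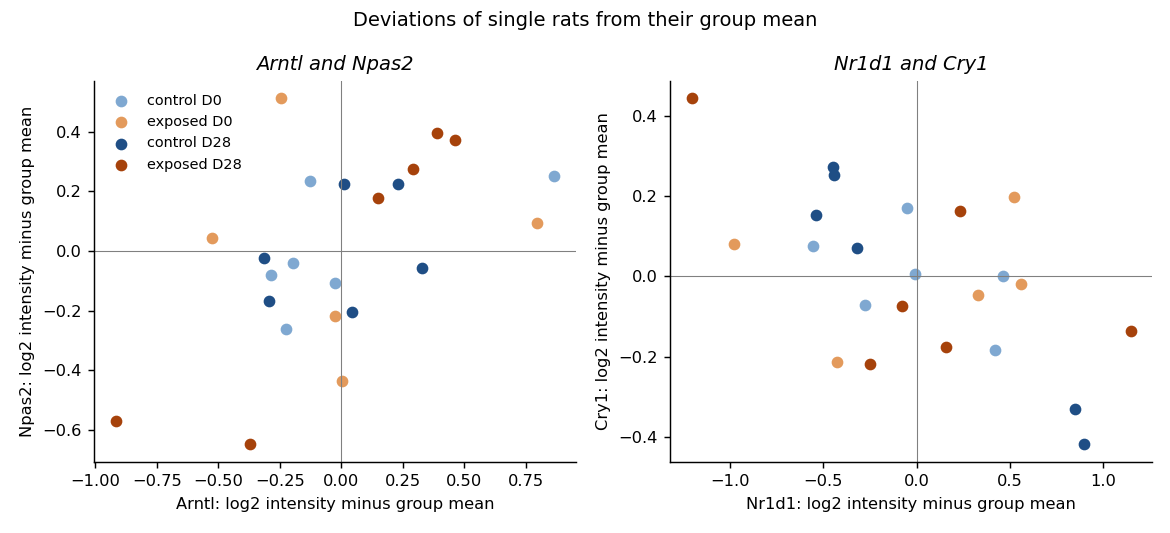
Deviation of each of 23 arrays from its group mean (log2 intensity) for Arntl and Npas2 on the left and for Nr1d1 and Cry1 on the right, coloured by group. The points rise together on the left (r = 0.54) and fall on the right (r = -0.60), and neither relation passed adjustment over 21 pairs.

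The differences of the members were read again within single slides that held both groups. The D28 controls were above the D0 controls by 2.40 to 2.72 for Arntl and by 2.69 to 2.83 for Npas2 on 3 slides. Exposed rats of D28 were at -1.59 to -0.80 from their controls for Arntl, at -1.35 to -0.68 for Npas2 and at -0.94 to -0.67 for Cry1 on 3 slides. On D0 Cry1 was higher by 0.60 to 1.00 on 4 slides. The sign of these differences was thus the same on every such slide. Each slide held only 1 or 2 rats of a group, so that these values are a description. Nfil3 kept its sign for the controls between the days (0.24 to 1.08 on 3 slides) and for exposure on D28 (-0.59 to -0.18), but changed sign between slides for exposure on D0 (-0.03 to 0.96) and for the exposed rats between the days (-0.18 to 0.12). Cry1 changed sign for the controls between the days (-0.29 to 0.37), and Clock and Rora changed sign in 3 and 3 comparisons.

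Markers of lung cell types were set beside these results, with 61 measured genes in 9 lists. Between the controls of D28 and D0, 0 of the 61 were DEGs and the summed intensity overlapped for all 9 lists. Their part in the results of Arntl and Npas2 between these groups was not tested. On D28 1 of 61 was a DEG (the heart muscle gene Myl7, lower in exposed rats), and the sum of the cardiac muscle list, 6823 to 8991 in exposed rats, did not overlap the controls (9510 to 12567), while its member Nppa was well above background on 0 arrays. On D0 Siglec1, a macrophage gene, was higher and Myl7 lower. The macrophage sum was 15197 to 18298 in exposed rats and 10363 to 13175 in controls, although Marco was well above background on 2 of 23 arrays. That sum rests mostly on Cd68 (mean log2 level 13.11 in controls and 13.66 in exposed rats), while Adgre1 went from 7.99 to 7.74. The type II pneumocyte sum was 437349 to 507446 against 374664 to 414551. The part of the macrophage and type II pneumocyte genes in the result for Cry1 on D0 was not tested. Nor was that of the cardiac muscle genes in the results on D28. Of 8 genes induced by glucocorticoids, adrenal hormones with a daily rhythm, 3 fell on D0 (Klf9, Per1 and Zbtb16) and 1 rose (Mt2A), 2 fell on D28 (Fkbp5 and Zbtb16), and 0 were DEGs for the controls between the days. Their part in the results of the members was not tested.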

How the data were processed

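RNA of the accessory lung lobe of 23 rats was labelled with Cyanine 3 and hybridised to Agilent single-colour rat arrays. The authors deposited scanner output per array (Feature Extraction 11.0.1.1 on 22 arrays, 12.0.1.1 on 1), whose processed signal is an intensity corrected for background and spatial trend but not normalized between arrays. They also deposited a table of intensities, quantile normalized (sorted columns identical), which served as an alternative. Probes carry rn4 coordinates in the deposited files. The 6 members and all lists were chosen with earlier results of these data known.

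Control spots were left out, flagged outliers set missing, and log2 processed signals used. Of 45598 probes, 40407 passed the 95th percentile of 308 negative controls on at least 5 arrays. Arrays were quantile normalized, and probes of a symbol averaged, into 23022 genes. limma 3.58.1 (R 4.3.3) fitted 4 group means over all arrays (19 residual degrees of freedom), with Benjamini-Hochberg adjustment over all genes. A DEG needed adjusted p below 0.05 with 1.5-fold or more change. Beyond the planned comparisons, exposed rats were compared between the days. Named were the 6 members, the clock genes that passed in any of the 4 planned contrasts with 11 always named, and the 5 highest and 5 lowest r with Arntl. The values of 1 gene of the clock list are not reported here. Replicates are separate rats. Scripts were tested on simulated data. Promoters came from RefSeq (GRCr8). The methods name an additional batch correction whose batches are not given in the sources used here, so that none was in the model, and slide and replicate number were tried as blocks. Alternatives were 12 other settings, each array left out in turn, and each probe of Clock and Rora alone, the last chosen after seeing the data.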

Additional observations from a re-analysis of the deposited data

Results flagged for a closer look

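Arntl in replicate 3 of the D0 controls, at 8.17, lay far above the other 5 controls of that day, whose highest was 7.27, by Dixon's test of the gap to the nearest array. It was 1 of 24 combinations of a member and a group that were tested, and chance sets apart about 1 in 20. Without this array the log2 difference of Arntl between the controls of D28 and D0 was 2.58, the highest of the 23 fits that left out 1 array. The exposed rats of D0 were then at 0.75 ± 0.24 over the remaining controls of that day.

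The effect of exposure differed between D28 and D0 for 3 clock genes that are not members, as tested in the same fit. These genes come from a list chosen with earlier results of these data known. The gap was 4.49 on the log2 scale for Nr1d1, 1.80 for Nr1d2 and 3.91 for Dbp (limma adjusted p = 0.000232, 0.0126 and 0.000519). Nr1d1 was lower by -2.50 with exposure on D0 and higher by 2.00 on D28.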

How the results depend on the processing

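Over 12 other settings and 23 fits that left out 1 array, Arntl and Npas2 were higher in the D28 than in the D0 controls (1.96 to 2.66 and 2.14 to 2.83) and lower in exposed than in control rats of D28 (-1.40 to -1.05 and -1.10 to -0.88), and Cry1 kept its sign on D0 (0.74 to 0.86) and on D28 (-0.96 to -0.73). Between the controls, normexp background correction gave 1.96 for Arntl and 2.14 for Npas2, and the authors' normalized values gave 2.34 for Npas2. Clock was at -0.34 for the controls and at 0.31 for the difference of effects with its highest or its first probe alone, and at 0.61 and -0.53 with the second. The number of DEGs over all genes was 220 on D0 and 94 on D28 with normexp, and 42 on D28 with only the arrays of the contrast (34 higher and 8 lower, against 112 and 62). For the difference of effects it was 14 with normexp, 13 with the filter on spots well above background and 12 with an intensity trend, where the main fit gave 7. With only the arrays of the contrast, the difference of effects could not be fitted. Of the other clock genes, 2 passed on D0 with normexp, 7 with array weights, and 1 on D28 with only the arrays of the contrast. Leaving out 1 array gave 111 to 203 DEGs on D28 (111 without replicate 1 of the exposed rats), 88 to 202 between the controls (91 without replicate 1 of D0, 88 without replicate 2 of D28) and 6 to 11 for the difference of effects (11 without replicate 4 of the exposed rats of D28). Of the 21 correlated pairs, 1 passed with 75th percentile scaling, and leaving out 1 array gave 0 to 1 (1 without replicate 2 of the exposed rats of D0, Arntl with Nfil3). With slide effects removed 3 passed, but the permutation still moved values between slides, so that nothing is concluded from these 3. The cause of these shifts was not tested.

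Over 33 pairs of arrays with the same replicate number the median r of deviations was -0.02, against -0.0035 for pairs with other numbers. Single pairs of the same number ran from -0.30 to 0.46, with 12 of 33 over 0.1. Of 23 arrays, 7 were most like one with their own number in another group, so that a pairing of rats was neither shown nor excluded. With the replicate number as a block 355 genes passed on D0, 138 on D28, 124 between the controls and 5 for the difference, and of the other clock genes 4, 4, 9 and 3. Pairs of arrays from different groups on the same slide had a median r of deviations of 0.18, against -0.05 on different slides. With the slide as a block 506 genes passed on D0, 251 on D28, 173 between the controls and 5 for the difference.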
